A study of Mus musculus with 2 samples.

Results

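The 10 genes described here encode the platelet-derived growth factor (PDGF) receptors Pdgfra and Pdgfrb, their ligands Pdgfa and Pdgfb, the smooth muscle contractile proteins Acta2, Tagln, Cnn1 and Myh11, and the pericyte markers Rgs5 and Cspg4. They were chosen by name, with earlier results of these data known. All 10 were found by their GENCODE M21 symbol among 55536 annotated mouse genes, with 42 annotated transcripts between them. Expression was measured in whole limb tissue of mouse embryos of the B6NCrl strain on embryonic day 12.5, as polyA RNA-seq of 1 group with 2 biological replicates. Replicate 2 came from a pool of 68 embryos and replicate 1 from a pool of 88 embryos, both of mixed sex, and 10 ng of RNA went into each library together with ERCC spike-in RNA. No second tissue, age or treatment was compared, and forelimbs and hindlimbs were not separated in the labels. The question the data answer is therefore how much of each transcript a limb at this age held, and how closely the pools matched.

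PDGF ligands are secreted dimers that bind receptor tyrosine kinases on neighbouring cells. In embryonic vessels, endothelial cells secrete PDGF-B, which recruits PDGFRβ-bearing pericytes and smooth muscle cells to the vessel wall, while PDGF-A is made mainly by epithelia and muscle and acts on PDGFRα-bearing mesenchyme. As mural cells mature into smooth muscle they take up a contractile programme of smooth muscle actin, transgelin, calponin and smooth muscle myosin, driven by serum response factor (SRF) bound to CArG boxes together with its coactivator myocardin.

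Levels are given in TPM, a unit of transcript abundance that the authors normalised for transcript length and depth, as mean ± SD over n = 2 libraries. Gene reads summed to 30118921 in replicate 2 and 29633457 in replicate 1, which put 37.9 and 37.5 reads on a transcript of 2000 nt at 1 TPM. The share of reads from the spike-in RNA was 2.24% in replicate 2 and 3.19% in replicate 1. All 8 limb mesenchyme markers listed reached 1 TPM, led by the homeobox genes Msx1 and Prrx1. Because the tissue was taken whole, fewer cells of a type and less RNA per cell cannot be told apart.

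Of the 10 genes, 8 reached 1 TPM in both libraries, a level reached by 27.3% of all genes and by 58.1% of protein-coding genes. Because the genes were chosen with earlier results known, this count is a description. The same shares stand beside the counts of other listed genes at 1 TPM below. The mean levels spanned 734-fold. By mean M21 TPM, Pdgfra was highest, followed by Acta2, Pdgfrb, Pdgfa, Cspg4, Tagln, Pdgfb, Cnn1, Rgs5 and Myh11. Each step between neighbours in this order was set against the scatter between the libraries, measured on genes of like level and called the spread here: for the 500 genes closest to the lower gene, the size of the log2 difference that 95% of them stay under. By this measure 6 of the 9 steps were larger than the spread, and the steps from Pdgfb to Cnn1, from Cnn1 to Rgs5 and from Rgs5 to Myh11 were not. The order depends on the annotation at 2 of these steps: with the earlier GENCODE M4 annotation Acta2 stood at 118 ± 5.85 TPM and Pdgfra at 117 ± 2.42 TPM, a log2 step of -0.0102 that was within the spread, and Cnn1 at 0.51 and 0.49 TPM was next to Rgs5 at 0.46 and 0.57 TPM. With M4 the step from Cspg4 to Tagln also fell within the spread, at 0.54 against 0.62. That from Pdgfb to Cnn1 went past the spread, at 2.03 against 1.78. With 2 libraries, an exact two-sided permutation of a pair of genes gives p = 0.333 at best, so no such test was made between genes.

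**Figure D1:**
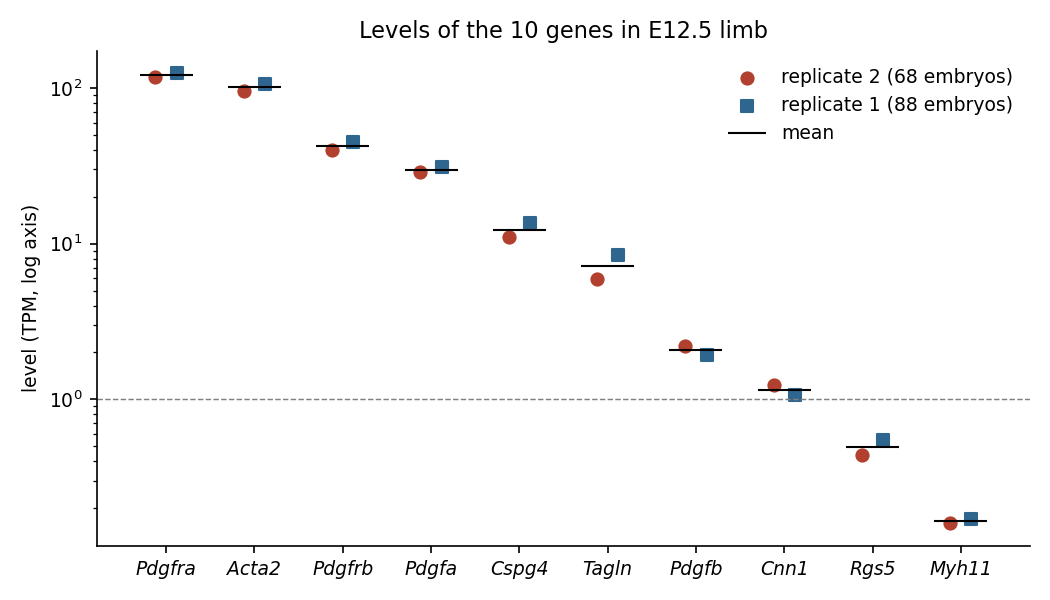
Level of each gene in TPM on a log axis, with replicate 2 as a circle on the left, replicate 1 as a square on the right and the mean as a bar; the dashed line marks 1 TPM. The 2 libraries lie close together at each gene, and Rgs5 and Myh11 are the genes below the line.

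Among the ligands, Pdgfa (ENSMUSG00000025856.15, mm10 chromosome 5, 138976014 to 138997370, minus strand) stood at 28.8 TPM in replicate 2 and 31.0 TPM in replicate 1, a mean of 29.9 ± 1.55. Pdgfb (ENSMUSG00000000489.7, chromosome 15, 79995874 to 80014977, minus strand) stood at 2.20 and 1.94 TPM in the same order, a mean of 2.07 ± 0.184. Pdgfa was thus 14.5-fold above Pdgfb, and the log2 ratio of 3.71 in replicate 2 and 4.00 in replicate 1 was past the spread of 1.00. The other ligands, Pdgfc and Pdgfd, are activated by proteolysis outside the cell and bind the same receptors. Pdgfc stood at 47.2 and 46.9 TPM and was the most abundant ligand gene, with Pdgfa at 0.635 of its level, while Pdgfd stood at 5.98 and 7.10 TPM, 3.15-fold above Pdgfb. Both differences were past the spread. The order of Pdgfa and Pdgfc rests on the transcripts counted. Of Pdgfc, 79.7% in replicate 2 and 78.4% in replicate 1 lay in Pdgfc-202, an entry annotated for nonsense-mediated decay. When only transcripts with the GENCODE basic tag were summed, an alternative chosen after the data were seen, the log2 ratio of Pdgfa to Pdgfc turned from -0.66 to 1.67. Of the summed TPM of the 4 ligand genes, Pdgfa held 34.2% in replicate 2 and 35.6% in replicate 1, and Pdgfb held 2.61% and 2.23%.

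Pdgfa transcripts encode a short and a long protein, which differ by an exon near the 3' end of the coding sequence. The long form carries a run of basic residues that holds the ligand to heparan sulfate at the cell surface and matrix. The coding bases of that exon, exon 6 of the 7 in Pdgfa-201, are shown because their presence decides which form a transcript encodes. They were read from the GENCODE M21 transcript at chr5:138978638-138978690 (GRCm38, minus strand), with 7 lysine or arginine codons in a row in capitals.
Pdgfa-201 exon 6, coding part: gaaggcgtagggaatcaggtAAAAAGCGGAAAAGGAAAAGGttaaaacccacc
In all, 11 of the 17 whole codons in these 53 bases encode lysine or arginine. The exon itself is 69 nt, and the 3 other complete coding transcripts lack it.

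Nearly all Pdgfa reads were assigned to transcripts of the short form. Pdgfa-202 held 73.2% of the gene's TPM in replicate 2 and 73.1% in replicate 1, and Pdgfa-204, which starts at an upstream first exon, held 19.4% and 20.2%. These entries and Pdgfa-203 share a coding sequence of 588 nt. The long form Pdgfa-201, with 633 coding nt, held 1.35% in replicate 2 and 3.90% in replicate 1, from 11.2 and 34.4 estimated reads. The deposited credibility bounds of its TPM ran from 0.0163 to 1.64 in replicate 2 and from 0.289 to 2.79 in replicate 1. The level of these bounds is not stated, and of the transcripts with reads here 3 of 29 in replicate 2 and 2 of 31 in replicate 1 had a TPM outside their own bounds. No test was made of the difference in the long form between the libraries.

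**Figure D2:**
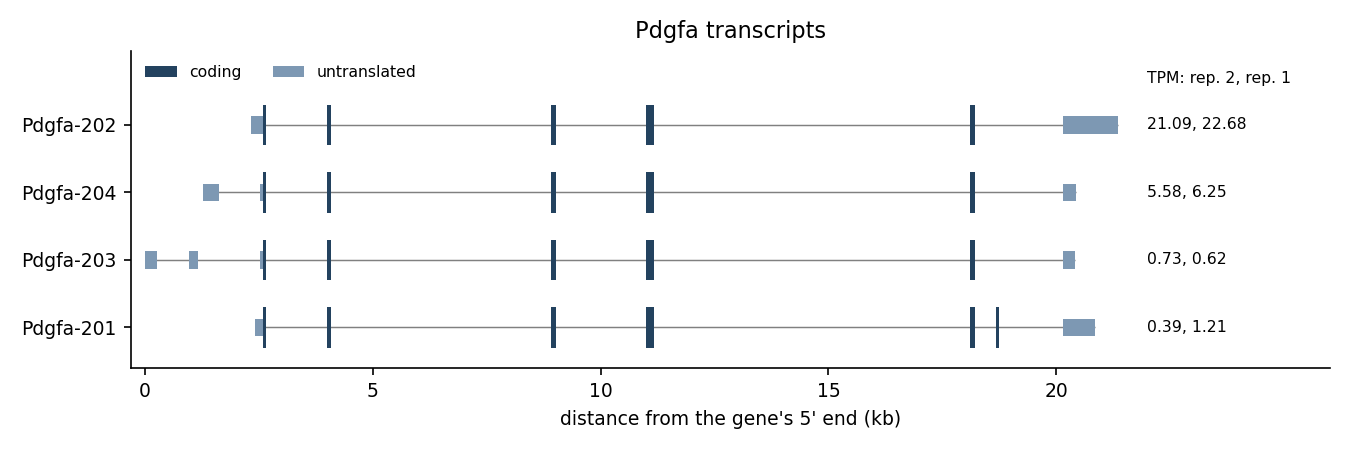
Exons of the 4 complete coding Pdgfa transcripts against the distance in kb from the 5' end of the gene, with coding parts tall and dark and untranslated parts low and light; numbers on the right are TPM in replicate 2 and replicate 1. The extra coding exon of Pdgfa-201 stands near 18.7 kb, on the transcript with the lowest or next to lowest TPM in each library.

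Both receptors were abundant. Pdgfra (ENSMUSG00000029231.15, chromosome 5, 75152292 to 75198215, plus strand), the receptor that binds every PDGF chain but PDGF-D and marks connective tissue progenitors, stood at 117.75 TPM in replicate 2 and 124.5 TPM in replicate 1, a mean of 121 ± 4.78 that ranked 1419 among all genes. Pdgfrb (ENSMUSG00000024620.11, chromosome 18, 61045150 to 61085061, plus strand), the receptor of pericytes and smooth muscle that is also found on mesenchyme, stood at 40.0 and 44.9 TPM, a mean of 42.4 ± 3.46. Pdgfra was 2.86-fold above Pdgfrb, with log2 ratios of 1.56 in replicate 2 and 1.47 in replicate 1 against a spread of 0.26. The receptor-like gene Pdgfrl, which encodes a secreted relative without a kinase domain, stood lower at 6.97 and 7.94 TPM. Pdgfrb-201 carried all reads of Pdgfrb in both libraries. Pdgfra-201 carried 87.9% of Pdgfra in replicate 2 and 84.1% in replicate 1, and no other transcript of Pdgfra held 10% in both.

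The intracellular partners of these receptors were present throughout: all 16 listed signalling genes were at 1 TPM or more in each library, and their median was 22.2 TPM. The adaptor genes Crk, Grb2 and Shc1 stood at 106, 88.2 and 69.2 TPM and the phospholipase gene Plcg1 at 85.7 TPM, while Pik3cb, a catalytic subunit of PI3-kinase, was lowest at 1.08 TPM. Of 10 listed genes that process, bind or retain the ligands, 8 reached 1 TPM. The matrix protein gene Sparc led at 368 ± 19.0 TPM, ahead of the endocytic receptor gene Lrp1 at 71.95 ± 2.91 TPM and the coreceptor gene Nrp1 at 40.6 TPM, which stood at 25.8 TPM with M4. Furin, a protease that cleaves the PDGF-A and PDGF-B precursors, stood at 10.5 TPM in replicate 2 and 8.33 TPM in replicate 1. Plat, whose product tissue plasminogen activator activates PDGF-C, stood at 9.18 and 9.57 TPM, and Plg, the source of plasmin, was lowest at 0.06 TPM.

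Among the 10 genes, the contractile group covered a wider range than the ligands, the receptors or the pericyte markers. Acta2 (ENSMUSG00000035783.9, chromosome 19, 34241090 to 34255590, minus strand), which encodes smooth muscle alpha-actin, stood at 95.5 TPM in replicate 2 and 106.8 TPM in replicate 1, a mean of 101 ± 8.00. Tagln (ENSMUSG00000032085.5, chromosome 9, 45929619 to 45936058, minus strand), the actin-binding protein SM22, stood at 5.95 and 8.43 TPM, a mean of 7.19 ± 1.75. Cnn1 (ENSMUSG00000001349.5, chromosome 9, 22099216 to 22109630, plus strand), encoding the actin-binding protein calponin 1, stood at 1.23 and 1.06 TPM. Myh11 (ENSMUSG00000018830.10, chromosome 16, 14194535 to 14291372, minus strand), the smooth muscle myosin heavy chain and the marker most restricted to mature smooth muscle, stood at 0.16 TPM in replicate 2 and 0.17 TPM in replicate 1. Acta2 was 14.3-fold above Tagln, with log2 ratios of 4.00 and 3.66 past the spread of 0.57. Acta2 alone held 92.9% of the summed TPM of the 4 contractile genes in replicate 2 and 91.7% in replicate 1.

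The low end rests on few reads. Myh11 had 20 reads in replicate 2 and 22 in replicate 1, with exact 95% Poisson intervals of 12.2 to 30.9 and 13.8 to 33.3, which cover counting error only. Cnn1 had 22 reads in each. The level of Cnn1 also depended on short entries: Cnn1-204, a processed transcript without a coding sequence, held 61.8% of its TPM in replicate 2 and 29.2% in replicate 1, and the partial entry Cnn1-202 held 15.4% and 25.5%. The full-length coding transcript Cnn1-201 stood at 0.28 TPM in each library. With M4, Cnn1 stood at 0.51 and 0.49 TPM, below 1 TPM, so that 7 of the 10 genes reached that level.

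Acta2 lies in a family whose other muscle members mark other tissues. Actc1 and Acta1, the cardiac and skeletal alpha-actins that embryonic skeletal muscle uses, stood at 326 ± 10.1 and 87.7 ± 8.76 TPM, and Actg2, the enteric smooth muscle gamma-actin, at 1.02 ± 0.0778 TPM. Acta2 was 99.6-fold above Actg2 and stood at 0.310 of Actc1, both past the spread. The 1.15-fold difference from Acta1 was not, at log2 ratios of 0.23 in replicate 2 and 0.19 in replicate 1 against a spread of 0.21. Acta2 held 19.2% of the summed TPM of the 4 muscle actins in replicate 2 and 20.0% in replicate 1. Developing skeletal muscle can also express Acta2, and all 9 listed skeletal muscle markers reached 1 TPM, with a summed level of 878 TPM in replicate 2 and 917 TPM in replicate 1; what share of Acta2 came from that tissue was not tested. The cytoplasmic actins Actb and Actg1 stood far above, at 10302 and 2218 TPM, although Actb stood at 5397 TPM with M4.

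In the calponin and transgelin family the smooth muscle forms were the lowest. Cnn3 and Cnn2, the calponins of nonmuscle cells, stood at 675 ± 13.4 and 179.9 ± 10.6 TPM, so that Cnn1 was 591-fold below Cnn3 and 157-fold below Cnn2. These folds grew to 1445-fold and 372-fold with M4 and to 1827-fold and 490.3-fold over basic transcripts. Tagln2 and the neuronal Tagln3 stood at 55.8 and 25.0 TPM, and Tagln was 7.86-fold below Tagln2. The same held for myosin II, where the nonmuscle heavy chains Myh10, Myh9 and Myh14 stood at 143.5, 32.8 and 2.93 TPM. Myh11 was 870-fold below Myh10 and 199-fold below Myh9, and 571-fold below Myh10 over basic transcripts. All of these differences were past the spread, which was 2.13 on the log2 scale at the level of Myh11.

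**Figure D3:**
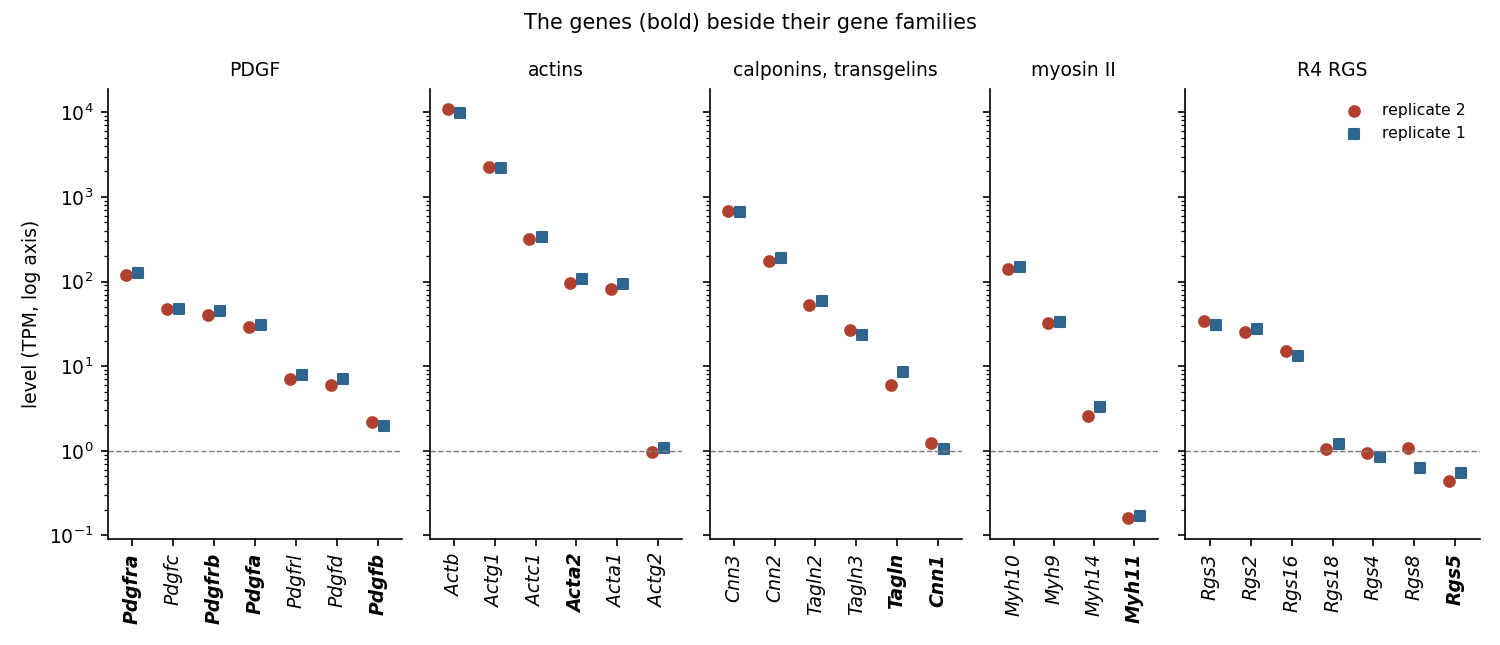
Levels in TPM on a log axis of the genes (bold) and of their relatives with reads in both libraries, by family; circles on the left are replicate 2, squares on the right replicate 1, and the dashed line marks 1 TPM. Tagln and Cnn1, Myh11, and Rgs5 stand lowest in their families, whereas Acta2 stands between Actc1 and Acta1.

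Outside the 4 contractile genes, 16 of 19 further genes of the smooth muscle contractile list were at 1 TPM or more in each library, and their median was 30.1 TPM. Its most abundant genes are also used by other cells: tropomyosin Tpm1 stood at 448 TPM, filamin Flna at 259 TPM and caldesmon Cald1 at 172 TPM. The smooth muscle regulatory light chain gene Myl9 stood at 88.4 ± 9.23 TPM. The more restricted genes were low, with Actg2 near 1 TPM, the actin nucleator gene Lmod1 at 0.28 TPM and the potassium channel subunit gene Kcnmb1 lowest at 0.11 TPM. Of the listed regulators of the programme, which include SRF cofactors that activate it and the factors Elk1, Elk3 and Klf4 that can repress it, 9 of 11 found reached 1 TPM. Mef2c stood at 49.9 TPM, Elk3 at 37.5 TPM and Tead1 at 28.6 TPM, an order that turned with M4, where Mef2c stood at 22.6 TPM, Elk3 at 34.4 TPM and Tead1 at 29.7 TPM. Tead1 differed between the libraries, at 34.8 TPM in replicate 2 and 22.4 TPM in replicate 1. Its log2 ratio of 0.63 was past the spread of 0.29. Srf stood at 9.89 TPM in replicate 2 and 9.19 TPM in replicate 1, and at a mean of 5.07 TPM with M4. The SRF coactivators Mrtfa and Mrtfb stood at 16.7 and 18.9 TPM, while myocardin, encoded by Myocd, was lowest at 0.39 and 0.44 TPM.

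The promoter of Acta2 is shown because CArG boxes, to which SRF binds, are the elements by which this gene class is usually described. RefSeq windows (GRCm38.p6, 250 bases before to 50 after the annotated start) were given for 6 of the 10 genes, Acta2, Pdgfra, Pdgfa, Rgs5, Cspg4 and Cnn1, with a pair of windows for Pdgfa. Both strands were searched for the CArG box, allowing at most 1 of the 6 core bases to differ from A or T, and for the TATA box TATAAA with its variant TATATAA, for the TEAD factor motif CATTCC and for the E-box CANNTG. In the Acta2 window, on the minus strand of chromosome 19, the matches in capitals lie with 10 bases on each side.
Acta2 CArG-like element at -84, chr19:34255438-34255467: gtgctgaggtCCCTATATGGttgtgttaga
Acta2 CArG-like element at -34, chr19:34255388-34255417: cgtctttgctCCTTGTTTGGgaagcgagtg
Acta2 TATATAA at 9, chr19:34255349-34255375: agcaaggggcTATATAAcccttcagcg
Acta2 GGAATG, the reverse of CATTCC, at -146, chr19:34255504-34255529: gcagaacagaGGAATGcagtggaaga
Positions count from the RefSeq start, which lies upstream of the TATA-like element. The GENCODE M21 gene starts further upstream, at 34255590, so the elements shown lie inside the gene as annotated there.

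A CArG-like element was found in 9.98% of all 32851 windows, and 0.822% held at least 2, as Acta2 did. An exact CArG box was found in 1.63% of windows and in none of the 7 windows of these genes. TATATAA was found in 3.24% of windows, CATTCC in 14.7%, TATAAA in 13.6% and CANNTG in 72.3%. In the other 6 windows no CArG-like, TATA or CATTCC match was found, and CANNTG was present in those of Pdgfra, Rgs5 and Cnn1 as well as in that of Acta2.

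Of the pericyte markers, Cspg4 (ENSMUSG00000032911.6, chromosome 9, 56865033 to 56899870, plus strand), which encodes the proteoglycan NG2 and is also made by oligodendrocyte precursors, stood at 11.0 TPM in replicate 2 and 13.7 TPM in replicate 1, a mean of 12.3 ± 1.90. Rgs5 (ENSMUSG00000026678.10, chromosome 1, 169655501 to 169695813, plus strand), a regulator of G protein signalling widely used as a pericyte marker, stood at 0.44 and 0.55 TPM, from 35 and 43 reads. Against Pdgfrb, the receptor that pericytes share, Cspg4 was 3.46-fold lower and Rgs5 86.1-fold lower, both past the spread. Cspg4 was 5.24-fold lower with M4 and 9.54-fold lower over basic transcripts. Cells other than mural cells also express Pdgfrb, so neither ratio counts pericytes. Rgs5 was the lowest of the RGS genes of its subfamily with reads in both libraries: Rgs3, Rgs2 and Rgs16 stood at 32.4, 26.6 and 14.0 TPM, Rgs18 at 1.14 TPM, and Rgs4 at 0.95 TPM in replicate 2 and 0.84 TPM in replicate 1. The difference between Rgs5 and Rgs4 was not past the spread of 1.73 on the log2 scale. Rgs13 had no reads in either library, and Rgs1 had none in replicate 2.

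Most of the Cspg4 level lay in entries annotated as retained introns, which together held 67.2% of its TPM in replicate 2 and 60.0% in replicate 1. The coding transcript Cspg4-201 held 32.8% and 40.0%, at 3.61 TPM in replicate 2 and 5.47 TPM in replicate 1. Cspg4-204 held 34.9% and 33.7%, and Cspg4-202 held 26.8% and 23.6%. By reads, which favour the long coding transcript, Cspg4-201 took 49.5% in replicate 2 and 57.6% in replicate 1. Summed over basic transcripts alone, Cspg4 stood at 4.54 ± 1.32 TPM and Tagln at 4.83 ± 1.10 TPM, so that the order of these 2 genes turned round. With M4, Cspg4 stood at 8.62 ± 1.73 TPM.

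**Figure D4:**
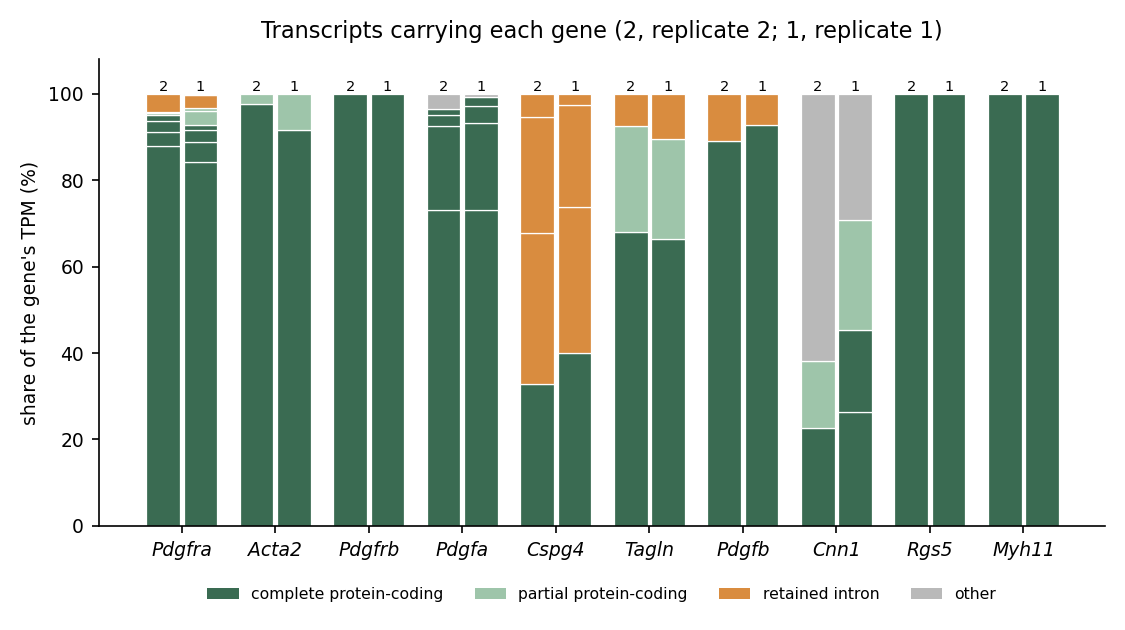
Share of each gene's TPM, in percent, held by its transcripts, coloured by annotated class, with replicate 2 as the left bar and replicate 1 as the right bar of each pair; white lines divide transcripts. Complete coding transcripts make up most of 8 genes, while Cspg4 is mostly retained-intron entries, Cnn1 is split in a different way in each library. Tagln also has a partial entry.

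In all, 28 of the 42 transcripts had reads in both libraries. Acta2, Pdgfrb, Rgs5 and Myh11 each had 1 transcript with at least 90% of the gene's TPM in both, and Tagln, Pdgfa, Cspg4 and Cnn1 each had at least 2 transcripts with 10% or more. Acta2-201 held 97.6% in replicate 2 and 91.5% in replicate 1, and Pdgfb-201 held 89.1% and 92.8%. Tagln-201 held 68.1% and 66.4%, and Tagln-202, a partial entry of 369 nt, held 24.4% and 23.0% from 7.79 and 10.4 reads. Tagln is also the gene whose sequence is least its own: 33.2% of the 100-nt windows of Tagln-201 occur in Gm48529 or Pcsk7, which overlap it on the other strand, against 0 windows for the coding transcript searched of each of the other 9 genes. Pcsk7 stood at 19.1 TPM in replicate 2 and 17.7 TPM in replicate 1, and Gm48529 at 0.49 and 0.60 TPM. Whether counting used strand was not given in the sources used here, so the level of Tagln is uncertain to that extent. Pdgfra, Pdgfa and Pdgfb are overlapped as well, by the antisense genes Gm42802, 6330403L08Rik and Gm41361 among others, which stood at no more than 3.39 TPM in any library.

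A further 20 pericyte genes were read for comparison, of which 12 were at 1 TPM or more in each library, near the share of 58.1% for all protein-coding genes. Their median was 2.71 TPM. The most abundant were the surface protein gene Cd248 at 27.1 ± 3.78 TPM, the transcription factor gene Tbx18 at 25.0 ± 3.68 TPM, the oxidase subunit gene Cox4i2 at 23.9 TPM and the receptor gene Notch3 at 18.0 ± 1.25 TPM. Cd248 and Tbx18 are also genes of embryonic mesenchyme. The channel genes Kcnj8 and Abcc9, which mark brain pericytes, stood with Rgs5 below 1 TPM, at 0.41 and 0.50 TPM. Higd1b had 0 reads in both libraries. Endothelial cells, the vessel partners of these cells and the usual source of PDGF-B, were represented by all 10 markers listed. The secreted factor gene Egfl7 was the highest of these at 62.9 TPM, Plvap followed at 48.0 TPM, and the angiopoietin receptor gene Tek was lowest at 6.76 TPM.

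The libraries were compared gene by gene by rounding the expected counts and applying an exact binomial test, two-sided, adjusted by the Benjamini-Hochberg method over 15926 genes at a mean of 1 TPM. The test compares these 2 libraries and not conditions, and its p-values cover counting error only. At an adjusted p under 0.05 and a 2-fold TPM ratio, 170 genes (1.07%) were called, 97 of them higher in replicate 2 (0.609% of the genes tested) and 73 lower (0.458%). Of the 10 genes, 8 were tested and 0 were called. Without the fold requirement 5 of the 8 passed, all lower in replicate 2, beside 10.3% of all tested genes that were lower and 8.96% that were higher at that threshold. Those shares were not matched for reads, and the test reaches the threshold at smaller ratios where a gene has more reads. Directions were taken from TPM, while the test used reads. The 5 genes were lower by either measure.

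These 5 genes differed by less than the libraries' own scatter. Pdgfrb was at 0.891 of its replicate 1 level in replicate 2 (adjusted p = 4.65e-07 by the exact binomial test) and Cspg4 at 0.803 (adjusted p = 3.01e-10). Tagln stood at 0.706 of its replicate 1 level, Acta2 at 0.894 and Pdgfra at 0.946, with adjusted p of 0.0140, 0.00710 and 0.00932 by the same exact test. In TPM 8 of the 10 genes were lower in replicate 2, Pdgfb and Cnn1 being the exceptions. Cnn1 had 22 reads in each library, and over basic transcripts it was lower in replicate 2, at 0.28 against 0.48 TPM. The median log2 ratio of the 8 tested genes was -0.13, beside 0.01 over all tested genes, 46.7% of which were lower in replicate 2. None of the 10 differences passed the spread of genes of like level described above. Tagln came closest, at a log2 ratio of -0.50 against 0.57.

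**Figure D5:**
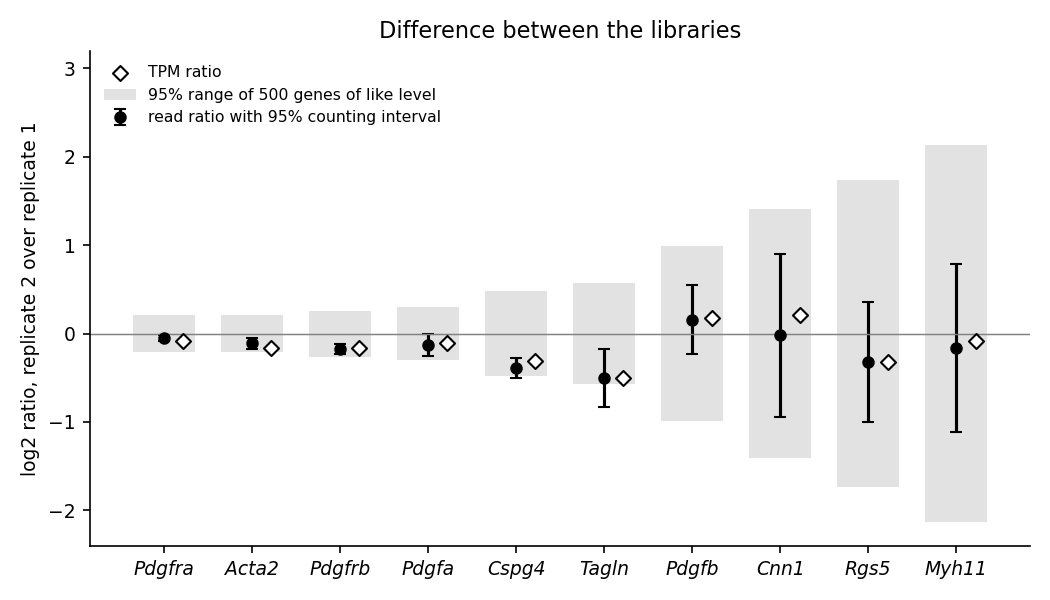
Log2 ratio of replicate 2 over replicate 1 for each gene, as reads with their 95% counting interval (filled points) and as TPM (open diamonds); grey bars hold 95% of 500 genes of like level on each side of 0. Each TPM ratio lies inside its grey bar, and the counting intervals are wider at Cnn1, Rgs5 and Myh11 than at the 7 genes above them.

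Markers of limb type and of other tissues also had unequal values in these libraries. The forelimb factor gene Tbx5 stood at 28.4 TPM in replicate 2 and 40.0 TPM in replicate 1, while the hindlimb factor gene Pitx1 stood at 164 and 136 TPM. Both differences passed the adjusted threshold of 0.05 in the exact binomial test but not the 2-fold requirement. Unlike those of the 10 genes, both were past the spread, at log2 ratios of -0.49 against 0.28 for Tbx5 and 0.27 against 0.21 for Pitx1. Tbx4, the other hindlimb factor gene listed, stood at 35.1 TPM in replicate 2 and 30.6 TPM in replicate 1. Its log2 ratio of 0.20 was within the spread of 0.30. The 6 heart markers summed to 7.93 TPM in replicate 2 and 10.2 TPM in replicate 1, with Nkx2-5 at 0 reads in both. Myl2 went the other way, at 1.46 TPM from 11 reads in replicate 2 and 0.15 TPM from 1 read in replicate 1. Of the 3 heart markers tested, 0 had an adjusted p under 0.05 in the exact binomial test. The 5 neural and oligodendrocyte precursor markers summed to 23.7 and 16.4 TPM, with Olig1 and Olig2 at no more than 0.1 TPM in either. The part of these markers in the differences of the 10 genes was not tested.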

How the data were processed

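The 2 biological replicates of E12.5 limb formed 1 group and were quantified by the authors on mm10 with GENCODE M21 (used here) and M4, per the labels and file headers. The program, its version and strandedness are not given in the sources used. Expected counts, estimated by the authors, were rounded for tests. TPM deposited by the authors gave levels. FPKM deposited by the authors was an alternative. Percent of gene TPM per transcript, deposited by the authors, was compared with shares computed from TPM. Bounds of TPM deposited by the authors have no stated level, and some TPM values lie outside them.

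Library sizes used edgeR 4.0.16 TMM factors over genes, with DESeq2 1.42.0 size factors as an alternative. The binomial test used SciPy 1.17.1, and directions are those of TPM. Its call with the 2-fold requirement was tested on simulated data, and the threshold without that requirement was not. RefSeq gave promoter windows. Exact Poisson intervals cover counting error only, and a gene at 0 reads has a limit of 3 reads. Of 149 listed gene symbols, 147 were found.

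The members, the 16 other lists and the 16 pairs were chosen with earlier results of these data known. Named are all members, their relatives at 1 TPM, the 2 to 4 most abundant and the lowest gene of each list, both genes of each pair, overlapping genes, and transcripts at 10% or more in both libraries. Lmod1, Myl9, Srf, Elk1, Klf4, Mrtfa, Mrtfb, Furin, Plat, Kcnj8, Abcc9, Tbx5, Pitx1, Olig2, Csf1r, Rgs1, Rgs4, Rgs13, Gata6 and the Pdgfc transcripts were named after their values were seen. So were Tbx4 and Myl2.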

Additional observations from a re-analysis of the deposited data

How the results depend on the processing

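No paired analysis was possible because the labels give 1 group. The median level of the 10 genes, 9.76 TPM, was 7.27 TPM with M4, 6.31 FPKM, and 4.68 TPM over basic transcripts, an alternative chosen after the data were seen; either library alone gave 8.47 and 11.1 TPM. The number of genes at 1 TPM in both libraries, 8, was 7 with M4, FPKM or basic transcripts and 6 at 2 TPM. The 170 genes that differed between the libraries were 380 without a filter on low values, 38 at a mean of 5 TPM and 432 at 1.5-fold, and 0 of the 10 genes was called under any of these. Leaving out a library gives no such test. The log2 ratio of Acta2 to Acta1, 0.21, was past the spread with M4 at 0.35, with counts not divided by length at 0.68 and in replicate 2 alone, the single libraries ranging between 0.19 and 0.23. That of Pdgfa to Pdgfc turned to 1.67 over basic transcripts. Genes with at least 2 transcripts at 10% numbered 4, and 1 with M4, which annotates fewer transcripts of them. The other 14 chosen pairs kept their direction and their side of the spread under each alternative run. Steps between neighbours in the order turned more often. On the log2 scale, with M4, Pdgfra to Acta2 turned to -0.0102 and Cnn1 to Rgs5 to -0.0347. Over basic transcripts Cspg4 to Tagln turned to -0.10 and Cnn1 to Rgs5 to -0.42. With counts not divided by length, Acta2 to Pdgfrb turned to -0.25, Pdgfa to Cspg4 to -0.35 and Cnn1 to Rgs5 to -0.82. Other steps kept their direction but changed their side of the spread. Cspg4 to Tagln fell within it with M4, and Tagln to Pdgfb did over basic transcripts and with counts not divided by length. Pdgfb to Cnn1 went past it with M4 and with counts not divided by length. Rgs5 to Myh11 went past it when 1 was added to each TPM before the log. Depth limits Cnn1, Rgs5 and Myh11, and 2 libraries limit every SD.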

Other observations

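Lists outside the PDGF and mural cell programmes were read only as markers of other cells in the limb. Of the skeletal muscle markers, Actc1, Tnnt1 and Myl1 were the most abundant, at 326, 150.3 and 134 TPM, and the myogenic factor gene Myf5 was lowest at 10.8 TPM. Of the limb mesenchyme markers, Msx1 stood at 375 TPM, Prrx1 at 157 TPM, Prrx2 at 156 TPM and Hoxa13 lowest at 26.5 TPM. All 5 macrophage markers reached 1 TPM, from Pf4 at 43.0 TPM and C1qb at 15.2 TPM down to Ptprc at 1.14 TPM. Csf1r, which starts 15536 bases from the end of Pdgfrb, stood at 5.70 TPM in replicate 2 and 7.15 TPM in replicate 1. Of the heart markers 3 of 6 reached 1 TPM, led by Tnni3 at 3.46 TPM in replicate 2 and 4.44 TPM in replicate 1 and Myh6 at 1.40 and 2.57 TPM, a gene at 0.555 TPM with M4. Of the neural and oligodendrocyte precursor markers 3 of 5 did, with Tubb3 at 11.5 and 7.13 TPM and Stmn2 at 8.79 and 5.66 TPM, higher in replicate 2 by the exact binomial test (adjusted p = 8.59e-08 and 4.51e-07), and Sox10 at 3.28 and 3.47 TPM. The log2 ratios of Tubb3 and Stmn2, 0.69 and 0.64, were past their spreads of 0.49 and 0.57.

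At an adjusted p under 0.05 and a 2-fold ratio, 1 listed gene was called between the libraries, beside 1.07% of all genes tested. It was Gata6, a regulator of the smooth muscle programme, at 0.84 TPM in replicate 2 and 1.79 TPM in replicate 1 (adjusted p = 0.0300 by the exact binomial test, which covers counting error only). Its log2 ratio of -1.09 was within the spread of 1.22 for genes of like level, and it is named after its values were seen.

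At any fold, 5 of 17 contractile genes and 5 of 12 pericyte genes tested beside the 10 described had an adjusted p under 0.05 in the exact binomial test and were lower in replicate 2, and 0 were higher. Over all genes tested these shares were 10.3% lower and 8.96% higher, not matched for reads. Directions here are those of TPM, while the test used reads, and the reads of a gene can go the other way. In the PDGF ligand and receptor list the 2 genes past that threshold were Pdgfra and Pdgfrb. Of the 16 receptor signalling genes 3 were higher and 3 lower by TPM. Grb2 is counted as higher, although its reads were lower in replicate 2, at 3257 against 3461. Of the 8 mesenchyme markers 4 were higher and 1 lower, and of the 9 skeletal muscle markers 0 were higher and 4 lower. The 10 endothelial markers had 2 higher and 3 lower, and the 8 ligand processing genes tested had 1 higher and 3 lower. The 10 SRF and myocardin regulators tested had 2 higher and 3 lower. Mrtfa is among the higher by TPM, with 895 reads in replicate 2 and 1029 in replicate 1. The genes of a list are not independent of one another, and these counts describe 2 libraries.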
